A study of Drosophila melanogaster with 3 samples.

Results

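Chromatin immunoprecipitation with sequencing (ChIP-seq) ranks many more candidate regions than are kept as reproducible peaks, and the regions described here are those that fell directly below that limit. They were chosen by the authors' pooled signal: the thresholded list on the dm6 assembly held 3816 peaks, and the members are the candidates of ranks 3817 to 7632 by signal in the pooled list whose interval overlapped no thresholded peak. Of these 3816 ranks, 337 (8.83%) were barred by such an overlap, which left 3479 members of 30000 pooled candidates (11.6%). They were set beside the 3816 thresholded peaks and beside 21604 candidates ranked below them that overlapped no thresholded peak, called lower-ranked candidates here. Those lists are deposited as peaks together with background, so lower-ranked candidates include background regions.

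All libraries came from whole Drosophila melanogaster embryos of mixed sex, 0 to 24 h old, of 1 transgenic line that stably expresses CG6765 with GFP at its C terminus. The labels describe 1 group of 3 biological replicates, with no untagged or untreated group among them. A control experiment named in the labels was not analysed here. The description gives an anti-GFP antibody for the precipitation while the antibody label reads CG6765, and chromatin was sonicated to 200 to 800 bp. Whole embryos hold many cell types, so a weak signal in all cells and a strong signal in few cells cannot be told apart. Read numbers were not given with the peaks, which leaves the depth unknown. Intervals below cover counting error alone, and peaks or genes are not biological replicates.

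A reproducibility threshold is set from how alike independent replicates rank their candidates, and it can leave out both noise and true but weak or variable sites. Here the peaks kept were exactly the 3816 strongest of the pooled list, whatever their rank in each replicate. Fly promoters often carry short words for general factors, such as GAGA factor, Dref, M1BP and BEAF-32, and accessible promoters tend to collect ChIP-seq signal for many proteins. BTB-domain proteins, the group in which CG6765 is placed in the gene lists used here, include insulator and promoter factors as well as developmental regulators such as tramtrack and fruitless.

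The sequences below are shown because they surround the summits of 5 of the members with the smallest worst rank over the 3 replicates. Each is the stretch within 50 bp of the summit, on the plus strand of dm6, read from the NCBI RefSeq FASTA of the Release 6 genome. Capitals mark any of 14 motif words searched on both strands. They lie at chrX:947680-947780 (CG3699), chr3R:14657176-14657276 (CG3505), chrX:20503409-20503509 (RhoGAP19D), chr2L:19131972-19132072 (AsnRS) and chr2L:17390719-17390819 (CLIP-190).
CG3699: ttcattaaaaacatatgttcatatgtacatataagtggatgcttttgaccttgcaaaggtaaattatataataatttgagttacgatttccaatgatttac
CG3505: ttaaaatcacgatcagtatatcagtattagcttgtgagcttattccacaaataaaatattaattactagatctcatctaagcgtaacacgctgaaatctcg
RhoGAP19D: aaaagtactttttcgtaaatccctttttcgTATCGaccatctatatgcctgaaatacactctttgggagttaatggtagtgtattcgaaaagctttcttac
AsnRS: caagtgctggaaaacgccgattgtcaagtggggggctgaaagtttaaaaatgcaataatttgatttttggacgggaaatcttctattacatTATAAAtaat
CLIP-190: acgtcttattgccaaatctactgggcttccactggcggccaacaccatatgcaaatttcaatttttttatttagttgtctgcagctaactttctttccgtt

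These 5 windows had a G+C content of 25.7% (CG3699), 31.7% (CG3505), 34.7% (RhoGAP19D and AsnRS) and 39.6% (CLIP-190), all below the members' mean of 40.3%. The RhoGAP19D window held 1 BEAF-32 core (CGATA, here on the other strand) and the AsnRS window 1 TATA box (TATAAA). No word of the 14 was in the other windows, which says nothing of any factor there. The windows of the members at Pisd, next after CG3699 in this order, and at the glycolysis gene Pglym78 are not shown because they lie mostly in annotated UTRs.

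Signal fell without a step across the limit. The last thresholded peak, at the start site of lncRNA:CR44466, had a signal of 134.59 and a −log10 q-value of 2.71. The member ranked directly below it, at the start site of Naus, had a signal of 134.55 and the same rounded q-value. It was followed by the start site of hzg (134.54), an intron 3534 bp from a start of the Hox gene Antp (134.52), the start site of cpx, which encodes the synaptic protein complexin (134.52), and an intron 11135 bp from mir-31b (134.50). At the lower end, the member of rank 7630 (signal 90.28) was in an intron 1682 bp from a start of sals, an actin regulator of muscle sarcomeres. The last member, of rank 7631 (90.28), was a site 859 bp from CHES-1-like, a forkhead-type factor gene. Rank 7632, at the ribosomal protein gene RpS6, was barred by overlap, and rank 7633 near NijA had a signal of 90.27. Over all members the signal ran between 90.28 and 134.55 with a median of 106.58, and the −log10 q-value between 1.33 and 2.73 with a median of 1.82. The authors' signal and q-value chose or followed the choice of members and are a description only. Nearly all members (99.9%) had the same interval width of 456 bp, so width was not read as a measurement.

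Most members recurred in the replicates' own candidate lists, but few were strong in more than 1 of them. A summit within 100 bp was present in all 3 replicate lists for 1560 members (44.8%, Wilson 95% interval 43.2 to 46.5), against 77.3% of thresholded peaks and 5.58% of lower-ranked candidates. The same share over all pooled candidates was 19.7%. A further 1540 members (44.3%) recurred in 2 lists, 349 (10.0%) in 1 and 30 (0.862%) in none. Each of these 30 still overlapped an interval of at least 1 replicate, 12 of them an interval of all 3. Counted by overlap of intervals in place of summits, 79.3% of members recurred in all 3 lists, so a summit missing within 100 bp often lay elsewhere in an overlapping interval. Counts by overlap are given here for members alone. They cannot be set beside the shares of thresholded peaks or lower-ranked candidates, which are by summits. The pooled signal was made from these same replicates, so these shares describe the band and are not tested.

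**Figure D1:**
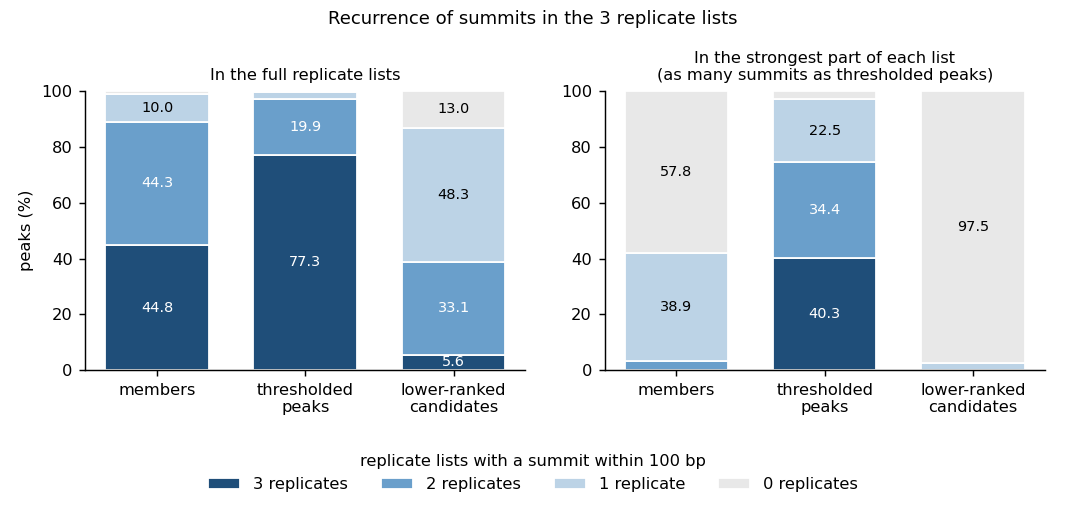
Share of members, thresholded peaks and lower-ranked candidates (columns, %) with a summit within 100 bp in 3, 2, 1 or 0 replicate lists. The left panel uses the full lists and the right panel the 3816 strongest summits of each replicate, where 57.8% of members, 2.88% of thresholded peaks and 97.5% of lower-ranked candidates were in none.

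Among the 3816 strongest summits of each replicate recurrence was lower. No member was held by all 3 replicates, 112 (3.22%) were held by 2, 1355 (38.9%) by 1 and 2012 (57.8%) by none, while 40.3% of thresholded peaks were held by all 3. Over all pooled candidates 10.0% were held by 2 or more. Of the 112 members strong in 2 replicates, 99 lay in ranks 3817 to 5724, where 1719 of all 3479 members lay. Because the pooled rank was made from these replicates, that count is a description only. At promoters there were 61 of the 112 (54.5%), against 44.8% of all members. The replicate that lacked the 112 members was replicate 1 for 41, replicate 2 for 41 and replicate 3 for 30. The members strong in a single replicate were spread as evenly, with 466, 449 and 440 from replicates 1, 2 and 3.

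The share of members found differed between replicates in their full lists and was alike among their 3816 strongest summits. In the full lists a summit was found for 72.6%, 83.4% and 77.1% of members in replicates 1, 2 and 3 (77.7% ± 5.44, SD, n = 3). For thresholded peaks the share was 91.4% ± 2.54 and for lower-ranked candidates 43.8% ± 2.45. Among the 3816 strongest, the share of members was 15.4%, 14.9% and 15% (15.1% ± 0.267), against 70.7% ± 4.09 of thresholded peaks and 0.835% ± 0.207 of lower-ranked candidates. Replicate 1 was the one most often lacking: of the 1540 members found in 2 lists, 665 had no summit in replicate 1, 357 none in replicate 2 and 518 none in replicate 3. Within the band, recurrence in all 3 full lists was 53.9%, 47.7%, 44.4% and 33.4% in 4 consecutive groups of 869 or 870 members by rank.

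The 15 members with the smallest worst rank over the replicates ranked between 2338 and 5618 in every replicate. The first of them was 230 bp from a start site of CG3699 (pooled rank 4138), with ranks 4536, 4767 and 4370 in replicates 1, 2 and 3, so that all 3 replicates placed it below rank 3816. The member at Pisd, the phosphatidylserine decarboxylase gene, ranked 3877 in the pool and 3003, 4377 and 4844 in the replicates. At CG3505 the pooled rank was 4800 and the replicate ranks 3081, 4686 and 4935. Both Pisd and CG3505 were above rank 3816 in replicate 1 alone.

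The intron summit nearest to a start of RhoGAP19D, 7235 bp away, had replicate ranks of 5158, 5049 and 3089. The start site of AsnRS, asparaginyl-tRNA synthetase, had ranks 5144, 2746 and 5256. An intron summit 1428 bp from a start of CLIP-190, a microtubule plus-end protein gene, had 5280, 4745 and 4538. SoxN, a SoxB factor gene of the early nervous system, had ranks 4769, 5293 and 3298. Of these 4 members, RhoGAP19D and SoxN were above rank 3816 in replicate 3 alone and AsnRS in replicate 2 alone, and CLIP-190 was below it in all 3.

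Other members of the 15 were at start sites of M6 (a proteolipid protein gene), Hers (a repressor of histone genes) and orion (a neuronal chemokine-like gene). Xpd (a helicase of transcription factor TFIIH) and CngA (a cyclic nucleotide-gated channel gene) also had them at start sites. The rest lay in a 5' UTR nearest to a start of Uba1 (the ubiquitin-activating enzyme), and in introns nearest to starts of drl (a Wnt5 receptor of the Ryk family) and Fur1 (a furin protease). The worst replicate ranks of all these other members ran between 5342 (M6) and 5618 (CngA). Hers had the weakest pooled signal of the 15 (rank 5909), with replicate ranks of 5365, 3516 and 4527.

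**Figure D2:**
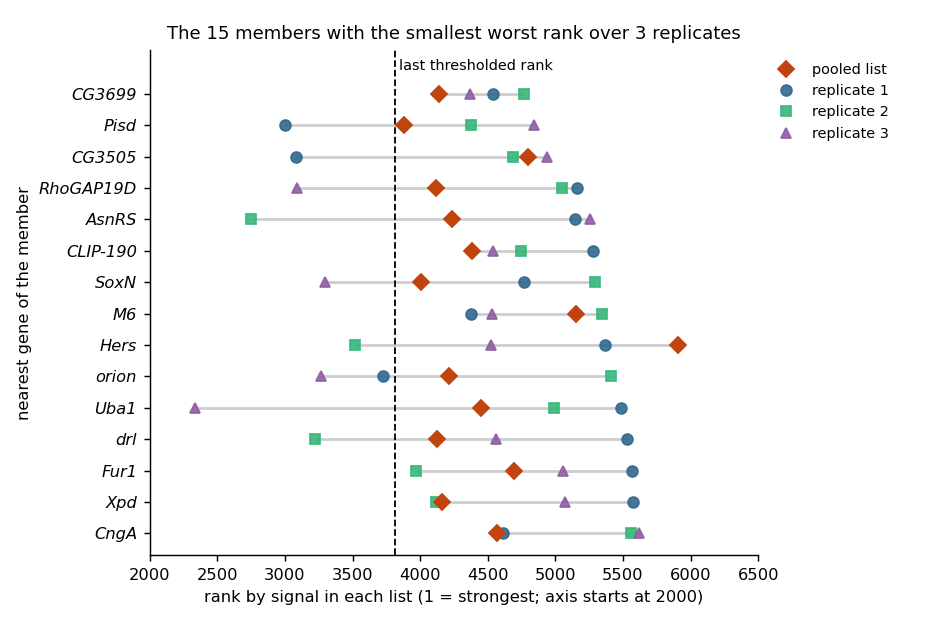
Rank by signal (x axis, 1 is strongest) of the 15 members with the smallest worst rank, in the pooled list (diamonds) and in replicates 1, 2 and 3 (circles, squares and triangles), each row named by the nearest gene. The dashed line is the last thresholded rank, 3816; CG3699, CLIP-190, M6, Fur1, Xpd and CngA lie right of it in every list.

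Members lay at start sites less often than thresholded peaks and more often than lower-ranked candidates. Summits were within 500 bp of an annotated start site, the promoter class, in 1558 members (44.8%, interval 43.1 to 46.4), against 56.7% of thresholded peaks and 23.4% of lower-ranked candidates. The odds ratio was 0.619 against thresholded peaks (95% interval 0.564 to 0.679; p = 2.3e-24 in a two-sided Fisher's exact test over peaks, and 1.6e-23 after adjustment for 7 classes). Against lower-ranked candidates it was 2.65 (2.46 to 2.85; exact test, adjusted p = 9.0e-141). When each replicate's own list was divided at the same ranks, promoter shares in the members' ranks were 38.5%, 42.1% and 43.6% (41.4% ± 2.65, SD, n = 3), against 55.5%, 55.4% and 58.6% in the ranks of thresholded peaks and 19.7%, 25.3% and 23.5% in the ranks below. The 3 ranges did not overlap. An exact sign-flip test gave p = 0.25 for both differences, the smallest that 3 replicates allow.

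Introns and intergenic regions made up the difference on the upper side. Introns held 39.8% of members, against 31.8% of thresholded peaks and 46.3% of lower-ranked candidates (Fisher's exact tests, adjusted p = 7.2e-12 and 1.1e-12). Intergenic summits were 11.6% of members, against 8.65% of thresholded peaks and 19.8% of lower-ranked candidates (exact tests, adjusted p = 5.9e-05 and 9.2e-33). Coding exons held 27 members (0.776%), against 0.262% of thresholded peaks and 5.44% of lower-ranked candidates (exact tests, adjusted p = 0.0044 and 1.0e-45). The coding-exon share differed between libraries, at 3.63%, 0.512% and 2.04% in the members' ranks of replicates 1, 2 and 3, and its part in that result was not tested. The 3' UTR share of 1.35% was below that of lower-ranked candidates, 2.98% (exact test, adjusted p = 5.2e-09). It did not pass against thresholded peaks, 0.943% (exact test, adjusted p = 0.17), nor did the 5' UTR and non-coding exon shares pass in either comparison.

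The promoter share declined along the whole list and continued to decline within the band. It was 51.1%, 45.1%, 43.0% and 40% in the 4 consecutive groups of members. In bins of 3816 ranks it was 56.7% in the bin of thresholded peaks, 44.8% among members, then 35.3%, 27.1%, 22.4%, 21.2%, 17.6% and 16.8%. Promoter members were found in all 3 full replicate lists in 40.4% of cases, against 48.5% of members elsewhere. They were in the strongest part of at least 1 replicate in 47.8% of cases, against 37.6% elsewhere.

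**Figure D3:**
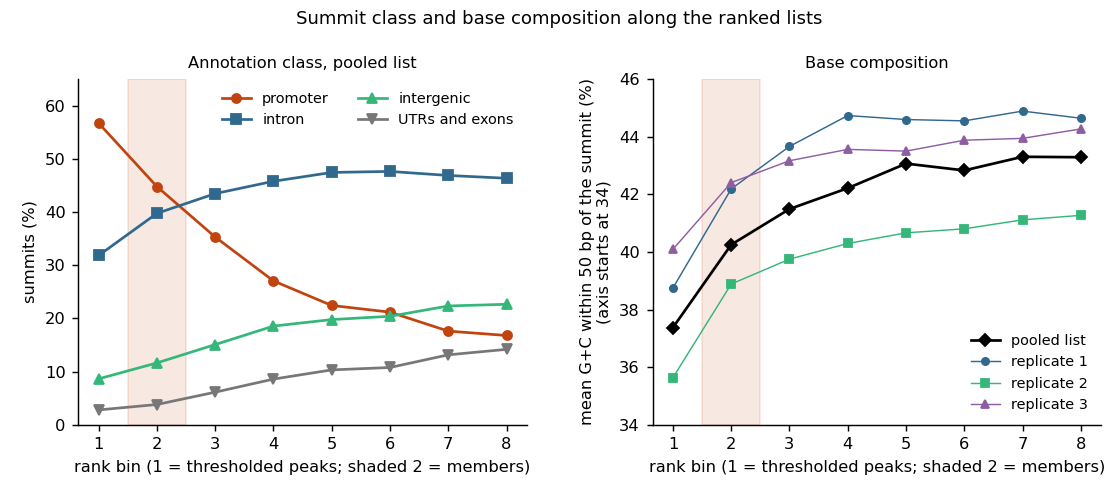
Left, share of summits (%) at promoters, in introns, between genes and in UTRs or exons along bins of 3816 ranks of the pooled list, leaving out candidates that overlap a thresholded peak. Right, mean G+C within 50 bp of the summit (%) in the pooled list and in replicates 1, 2 and 3 by their own ranks; the shaded bin 2 holds the members, at 40.3% in the pooled list.

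Promoter members were placed less one-sidedly than thresholded peaks. Their median distance to the nearest start site was 110.5 bp, against 115 bp for thresholded and 155 bp for lower-ranked promoter summits. They lay upstream of that start site in 56.7% of cases, against 69.0% of thresholded and 51.1% of lower-ranked promoter summits. Protein-coding start sites on both strands were within 500 bp of 18.9% of promoter members, against 26.0% of thresholded and 12.3% of lower-ranked ones. These shares are descriptions without a test. Intronic members lay a median of 2690 bp from a start site, against 2071 bp for thresholded and 3944.5 bp for lower-ranked intronic summits.

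Members were often neighbours of thresholded peaks, although none overlapped one. The nearest thresholded summit was a median of 6853 bp away and within 10 kb for 60.2% of members, against 11514 bp and 46.4% for lower-ranked candidates. Chromosome X held 17.5% of members, against 15.3% of thresholded peaks and 15.7% of lower-ranked candidates. The small chromosome 4, which is largely heterochromatic, held 9 members or 6.68 per Mb, against 15.6 thresholded peaks per Mb there, while the major arms held between 24.2 and 27.7 members per Mb.

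Base composition at the members' summits also lay between that of their neighbours in rank. The G+C content within 50 bp of the summit averaged 40.3% ± 10.2 among members, against 37.4% ± 10.6 among thresholded peaks and 42.7% ± 9.68 among lower-ranked candidates (SD across peaks). The difference was 2.88 percentage points from thresholded peaks (95% interval 2.40 to 3.36) and −2.44 from lower-ranked candidates (−2.80 to −2.08). Two-sided permutation tests over the peaks gave p = 1e-05 for both, which is the smallest value possible with 100000 permutations. In the replicates' own lists the difference from the ranks above was 3.44, 3.25 and 2.32 points, and from the ranks below −2.32, −1.76 and −1.30 points (exact sign-flip test, p = 0.25 for each). Windows with less than 30% G+C were 17.5% of members, 28.7% of thresholded peaks and 10.6% of lower-ranked candidates. At promoters the means were 42.4% in members, 38.5% in thresholded peaks and 43.8% in lower-ranked candidates. Elsewhere they were 38.5%, 35.9% and 42.4% in the same order.

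Of 14 words searched within 50 bp of the summit on both strands, 3 differed in share between members and thresholded peaks. The TATA box word TATAAA was in 482 members (13.9%), against 19.2% of thresholded peaks (odds ratio 0.678, adjusted p = 1.4e-08 by Fisher's exact test) and 11.5% of lower-ranked candidates, with 11.7% of all windows of the same length on the chromosome arms holding it. In each replicate's list its share was 12.3%, 16.6% and 12.4% in the members' ranks, against 16.2%, 21.5% and 16.2% in the ranks above. The word consists of A and T, and the members' windows were richer in G+C. Within windows of less than 30% G+C it was in 34.6% of members and 37.5% of thresholded peaks, within 30 to 40% in 16% and 19.1%, within 40 to 50% in 6.15% and 7.25%, and above that in 3.72% and 3.23%. The part of base composition in the difference was not tested further.

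The repeat CACACACA was in 3.91% of members, against 2.28% of thresholded peaks (odds ratio 1.74, exact test, adjusted p = 3.9e-04) and 3.62% of lower-ranked candidates, with 2.10% of arm windows. The repeat GAGAGAGA, which contains the GAGA factor word GAGAG, was in 60 members (1.72%), against 0.943% of thresholded peaks (odds ratio 1.84, exact test, adjusted p = 0.0179). It was in 0.810% of lower-ranked candidates and 0.566% of arm windows. Neither difference held in every replicate. Replicate 3 had the CA repeat in 3.02% of the members' ranks and 3.46% of the ranks above, and replicate 1 the GAGA repeat in 1.91% and 1.94%. Within 25 bp of the summit and at promoters alone the GAGA repeat had odds ratios of 2.08 and 1.83 but did not pass (exact tests, adjusted p = 0.0549 and 0.122). Within 100 bp it had 1.10 and did not pass either (adjusted p = 0.744 by Fisher's exact test).

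Against lower-ranked candidates 9 of the 14 words differed in share. The words DRE core TATCGATA, bound by Dref (1.12% of members and 0.523% of lower-ranked candidates), Motif 1 core GGTCACAC, bound by M1BP (1.06% and 0.537%), BEAF core CGATA, which is also part of the DRE word (15.1% and 12.5%), and GAGAG (14.5% and 12.3%) were more frequent in members. So were the TATA box, GAGAGAGA, TGATAA (9.00% and 7.14%) and the E-box CAGCTG (5.40% and 4.53%). The word GCCAT, the core bound by the Polycomb-group factor Pho, was less frequent, with 15.4% of members and 20% of lower-ranked candidates (exact test, adjusted p = 7.0e-10), beside 19.7% of arm windows. Adjusted p of the other 8 words was between 1.7e-05 and 0.0374 (Fisher's exact tests). Within 25 bp of the summit TATCGATA and CAGCTG did not pass, with odds ratios of 1.04 and 1.17 (exact tests, adjusted p = 0.869 and 0.295). At promoters alone 0 of the 14 words passed this comparison by Fisher's exact test with adjustment over 1558 members in place of 3479. An unadjusted p below 0.05 was found for 3 words, and the E-box CAGCTG was not one of them (exact test, adjusted p = 0.244). Adjusted p was smaller for the GAGA factor word and the TATA box (0.118 each) and for the GAGA repeat (0.147, exact tests). The GAGA repeat had an odds ratio of 2.15 over all summits and 1.67 at promoters. The odds ratios there were 1.21 for GAGAG, 1.24 for TATAAA and 1.21 for CAGCTG, beside 1.21, 1.24 and 1.20 over all summits. Those of the other 6 words were nearer to 1 at promoters, among them TATCGATA with 1.31 beside 2.16 and GGTCACAC with 1.36 beside 1.99. DRE, Motif 1, the Zelda word CAGGTA and the other E-box did not pass against thresholded peaks.

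At the level of genes, the limit left out many start sites that had a candidate summit directly below it. Of 13945 protein-coding genes, 2370 (17.0%) had a thresholded summit within 500 bp of a start site, and 1415 (10.1%) had a member there and no thresholded summit, called member-only genes here. Read against the 11575 genes without a thresholded summit, the share was 12.2%. Because neighbouring genes can share a summit, the 1415 genes stood for 1144 separate members. At 205 further genes a member and a thresholded summit were both present. For 578 of the 1415 a member at the start site recurred in all 3 full replicate lists. In the 3816 strongest summits of replicates 1, 2 and 3, 283, 331 and 316 of the 1415 genes had a summit at a start site, 131 of them in 2 or more replicates, and 623 had one in no replicate. When each replicate's own list was divided at the same ranks, it gave 1156, 1395 and 1392 such genes (1314 ± 137, SD, n = 3).

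Across 32 gene lists the share of member-only genes is given as counts without a test, beside 10.1% of all protein-coding genes and 12.2% of those without a thresholded summit. It exceeded 10.1% of all genes in 19 lists, and 12.2% of the genes without a thresholded summit in 22, with list medians of 12.1% and 19.3%. Most of the lists are short, so 1 gene moves their share by several percentage points. A gene counts through any of its annotated start sites, so genes with many start sites have more places to count. Median gene length ran between 0.55 kb (immune effectors) and 36.6 kb (ecdysone and juvenile hormone regulators), beside 2.17 kb for all protein-coding genes. The part of start-site number and gene length in the shares was not tested.

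**Figure D4:**
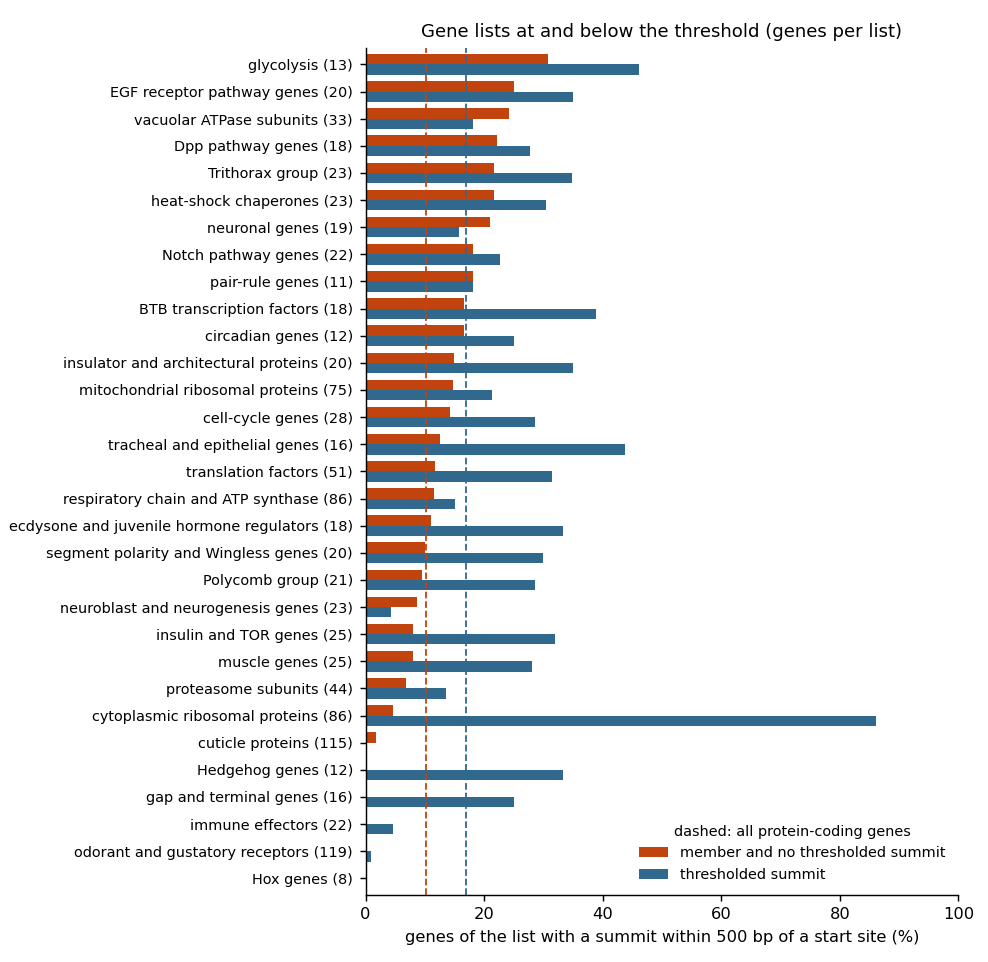
Share of the genes of each list described (rows, with the number of genes) that had a member and no thresholded summit (upper bar of each pair) or a thresholded summit (lower bar) within 500 bp of a start site. Dashed lines give the shares of all protein-coding genes, 10.1% and 17.0%; cytoplasmic ribosomal protein genes had 4.65% and 86.0%, glycolysis genes 30.8% and 46.2%.

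Among genes of basic cell functions, few cytoplasmic ribosomal protein genes were left to the band. A member and no thresholded summit was found at 4 of 86 (4.65%), since 74 already had a thresholded summit, and these were 4 of the remaining 12. RpL15 ranked 4626 in the pool and 23747, 3887 and 3630 in the replicates, and RpS2 4904 in the pool and 5768, 3993 and 12453. Each of these 2 genes was thus far weaker in 1 replicate. Mitochondrial ribosomal protein genes had 11 of 75 (14.7%), led by mRpS18B, mRpL48 and mRpS24 (ranks 3848, 3896 and 3928), whose members also lay within 500 bp of starts of Kua, CG17660 and Apc2.

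Glycolysis genes had the highest share of the 32 lists, 4 of 13 (30.8%), with 6 more at thresholded summits. Pglym78, a phosphoglycerate mutase gene, had a member 4 bp from its start site (rank 4948, signal 116) with replicate ranks of 2991, 21174 and 3975. Ald1, an aldolase gene, had ranks of 5620 and 19698 in replicates 1 and 2 and no summit in replicate 3. Tpi, triosephosphate isomerase, had rank 4076 in replicate 1 and no summit in the others. By replicate the own-list share was 23.1%, 7.69% and 30.8%, with replicate 2 the lowest. The all-gene share in the same lists was 8.29%, 10.0% and 9.98%.

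Vacuolar ATPase subunits, which acidify endosomes and lysosomes, had 8 of 33 (24.2%), with 6 more at thresholded summits. VhaAC45RP ranked 4026, Vha26 4318 and Vha16-5 4417, each of them far weaker or without a summit within 100 bp in at least 1 replicate. Their own-list shares of 15.2%, 24.2% and 3.03% in replicates 1, 2 and 3 lay on both sides of the all-gene share. Respiratory chain and ATP synthase genes had 10 of 86 (11.6%), among them ND-51, cype and ATPsynCF6. Translation factors had 6 of 51 (11.8%), with eIF5B at ranks 2851, 5635 and 3227 in the replicates, eEF1beta and eIF2D. Proteasome subunits had 3 of 44 (6.82%), namely Prosalpha4, Rpn2 and Rpt3. The respiratory chain and translation factor shares were near the background of all genes.

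Of the signalling pathway lists, those of EGF receptor, Dpp, Notch, and insulin and TOR genes held between 2 and 5 member-only genes each. The Hedgehog list, given below, held 0 of 12. EGF receptor pathway genes had 5 of 20 (25%), among them Krn, a ligand gene (rank 4584) and Dsor1, the MEK kinase gene (rank 5332), with own-list shares of 15%, 15% and 20%. Dpp pathway genes had 4 of 18 (22.2%), including the ligand gene dpp itself, 39 bp from a start site (rank 5076; replicate ranks 10644, none and 3053), and the Smad genes Med (4078) and Smox (4893). Notch pathway genes had 4 of 22 (18.2%), with the ligand gene Delta (rank 5399), the DNA-binding effector gene Su(H) (5198) and the target gene E(spl)mbeta-HLH (5065). For the last, a summit was found in replicate 2 alone. Insulin and TOR genes had 2 of 25 (8%), S6k and Akt.

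Of the lists of patterning genes, gap and terminal genes had 0 of 16, Hedgehog genes 0 of 12 and Hox genes 0 of 8. In the lists of replicates 1, 2 and 3 the own-list shares were 6.25%, 12.5% and 6.25% for gap and terminal genes and 8.33%, 25% and 0% for Hedgehog genes, on both sides of the all-gene shares, and 0% in each for Hox genes. Pair-rule genes had 2 of 11, hry (rank 6580) and opa (6883), and segment polarity and Wingless genes 2 of 20, Apc2 and the receptor gene fz2 (4258). A member lay in the body of 1 of 8 Hox genes (12.5%), 1 of 16 gap and terminal genes (6.25%) and 2 of 12 Hedgehog genes (16.7%). It was 2 of 11 for pair-rule genes (18.2%) and 6 of 20 for segment polarity and Wingless genes (30%), against 12.0% of all protein-coding genes. Gene length was not accounted for in these shares. Antp held 3 member and 3 thresholded summits over 103 kb, cnc 3 and 4, ftz-f1 6 and 8, rdx 1 and 9, and hh 1 and 0. In the gap and the Hedgehog list 1 gene each had a member beside a thresholded summit at a start site, which the count of member-only genes leaves out. With lists of 8 to 16 genes, 1 or 2 genes would already give the share of all genes.

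Chromatin and transcription factor genes had members at several well-studied regulators. Trithorax group genes had 5 of 23 (21.7%), with trx (rank 4014; replicate ranks 1148, 15249 and 7048), the H3K27 demethylase gene Utx (5222, with a summit in replicate 2 alone) and the PBAP subunit gene Bap170 (5477). The own-list shares of the Trithorax group were 4.35%, 17.4% and 17.4% in replicates 1, 2 and 3. The all-gene shares there were 8.29%, 10.0% and 9.98%. Polycomb group genes had 2 of 21 (9.52%), Psc (3979) and Su(z)12 (4729). Insulator and architectural protein genes had 3 of 20 (15%), Clamp (4194), pita (5450) and CTCF (7484). BTB transcription factor genes had 3 of 18 (16.7%), ttk (4448), CG3726 (4745) and fru (6282), beside 7 at thresholded summits. Their own-list shares of 5.56%, 22.2% and 38.9% differed widely between replicates 1, 2 and 3. Heat-shock chaperones had 5 of 23 (21.7%), with Hsc70-4 (5439), Hsp70Ab (6157) and CG4456 (6692). The Hsp70Ab value is uncertain, since Hsp70 genes are near-identical copies to which reads cannot be assigned with certainty, and the CG4456 member also lay within 500 bp of starts of Hsp22 and Hsp67Bc.

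Tissue genes gave small counts. Neuronal genes had 4 of 19 (21.1%), with cpx (3820), brp, which encodes an active-zone scaffold (4460; summit on a start site, replicate ranks 3494, 10333 and 5087), and fne, an RNA-binding protein gene (4529). A thresholded summit was at 3 of the 19 neuronal genes (15.8%), near the 17.0% of all protein-coding genes. Neuroblast and neurogenesis genes had 2 of 23 (8.70%), SoxN and pros (5436), muscle genes 2 of 25 (8%), Tm2 and Mhc, and tracheal and epithelial genes 2 of 16 (12.5%), crb and tgo. Cell-cycle genes had 4 of 28 (14.3%), with fzr (3823), Cdk4 (5228) and Cdk1 (6021), and circadian genes 2 of 12, vri and cwo. Own-list shares in replicates 1, 2 and 3 were 3.57%, 3.57% and 14.3% for cell-cycle genes and 0%, 16.7% and 0% for circadian genes. Ecdysone and juvenile hormone regulators had 2 of 18 (11.1%), Hr38 (3876; replicate ranks 5975, 2845 and 3279) and EcR (6974), whose member had no summit within 100 bp in any replicate.

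Gene families with few thresholded peaks also had few members. Odorant and gustatory receptors had 0 of 119 and 1 thresholded summit, immune effectors 0 of 22 and 1, and cuticle proteins 2 of 115 (1.74%), Cpr73D and Cpr65Av, and 0. Among RNA genes, tRNA genes had 37 of 290 (12.8%) from 22 separate members, against 8.28% at thresholded summits, with own-list shares of 8.28%, 15.2% and 7.93%. Because tRNA genes are clustered and repeated, those counts are uncertain in how reads were assigned. Long noncoding RNA genes had 78 of 1944 (4.01%), microRNA genes 9 of 260 (3.46%) and snoRNA genes 4 of 269 (1.49%).

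The nearest gene of a member was protein-coding in 87.4% of cases and a noncoding RNA gene in 10.9%. At 74.5% of members the nearest gene, of any type, had no thresholded summit at any of its start sites. That share counts a gene once per member, with 2554 separate nearest genes. It is therefore not directly comparable with the 83.0% of all protein-coding genes, each counted once, that had none. Of all members, 37.9% were promoter summits whose genes within 500 bp all lacked a thresholded summit.

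Some long genes held several member summits. Whether these were more than the length of the genes would give was not tested. Of all protein-coding genes, 1676 (12.0%) had at least 1 member in the gene body, 540 had 2 or more and 61 had 5 or more. These genes were long, with a median of 11.3 kb, against 1.92 kb for genes without a member. The gene with most members was ps (pasilla), a splicing regulator gene of 37.6 kb on 3R, with 11 members and 3 thresholded summits. It was followed by shn, a zinc finger factor gene of Dpp signalling (10 members and 11 thresholded summits in 58.3 kb). Eip74EF, an ecdysone-induced Ets factor gene on 3L, held 9 members, all in introns, and 0 thresholded summits in 60.7 kb. Another 5 genes had 8 members each: InR, the insulin receptor gene, with 2 thresholded summits, mtd with 3, Svil with 8, tara with 8 and bun with 10. Per kb, ps had 0.293 members, the highest of these genes, and Svil 0.0658, the lowest. Of the 11 members in ps, 2 recurred in all 3 replicate lists, and of the 9 in Eip74EF, 3 did.

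At CG6765 itself (3L, 8512767 to 8518738), the gene of the tagged protein, no member lay in the gene. Within 10 kb of it there were 1 member, 8 thresholded peaks and 6 lower-ranked candidates. The line carries a tagged transgene of CG6765, and any part of the transgene in these counts was not tested. The member was 65 bp from a start site of GstO2, a glutathione S-transferase gene (rank 6051, signal 103), and had a summit in replicate 3 alone, at rank 2288. A pair of further candidates of the band's ranks, nearest to GstO3 (4485) and CG6683 (6361), were barred because they overlapped thresholded peaks.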

How the data were processed

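Peak lists of 3 biological replicates, of their pool, and of the peaks passing the reproducibility threshold were used, all on dm6; the dm3 lists were not used here. Per the labels, the candidate lists are peaks and background called against a control and given to the reproducibility step. The signal of each peak, of no stated unit, and its q-value as −log10 are the authors' own, as deposited. For the aligner, the peak-calling program and the threshold, no name, version or value is given in the sources used here. Signal served to order the peaks of each list and for nothing else. The thresholded peaks were checked against the pooled list, where they were exactly ranks 1 to 3816. Every candidate list held 30000 regions, so ranks can be set side by side.

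Positions count from 1. Gene models were those of Ensembl release 115 (BDGP6.54, with dm6 coordinates), without transposable elements, and sequence came from the RefSeq Release 6 FASTA. Summits within 100 bp were counted as shared. Summits within 500 bp of a start site were called promoter summits, and the others were put in order of precedence in 5' UTR, 3' UTR, exons (coding before non-coding), introns or intergenic regions. Fisher's exact test (two-sided) compared shares, with p adjusted by Benjamini-Hochberg over the 7 classes or the 14 words and a threshold of 0.05, and G+C means were compared by 100000 permutations. Shares carry Wilson 95% intervals. The same ranks of each replicate's own list gave the spread over 3 replicates, with exact sign-flip tests. Gene lists were counted without tests. The code was tested on simulated data. Python 3.11.15, numpy 2.4.6, pandas 2.3.3, scipy 1.17.1 and matplotlib 3.10.9 were used.

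The members, the gene lists, the words and the tests were chosen with earlier results of these data known. After a first count had been seen, 9 older symbols in the lists were mapped to current ones and 2 duplicates were dropped. The genes named are those of the 5 members ranked first and the 2 ranked last with the candidates just outside, the 15 members of smallest worst replicate rank, up to 3 member-only genes a list, the genes with most members in the body (the 6 with most, ties included), and CG6765. Some of these genes and 1 list are not reported here. Patterning genes with members in their bodies were named after their values were seen. Sequences on 1 chromosome arm and in UTRs were left out. Alternatives were other distances, an interval overlap, the bar on overlap, a band of fewer ranks, stricter replicate ranks, protein-coding start sites, promoters alone, the replicates' own lists, and leaving out each replicate.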

Additional observations from a re-analysis of the deposited data

How the results depend on the processing

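Without the bar on overlap, or with a bar only by summits within 100 bp, the band held 3816 members, and over fewer ranks (3817 to 5724) 1719. The share of members with a summit in all 3 replicate lists followed the definition: 22.8% within 50 bp, 66.3% within 200 bp, 79.3% by interval overlap, 0% among the 3816 and 3.97% among the 7632 strongest of each replicate, and 55.1% to 64.0% when each replicate was left out. The promoter odds ratios, 0.619 against thresholded peaks and 2.65 against lower-ranked candidates, kept their direction and passed under other distances, protein-coding start sites, members found in all 3 replicates, and fewer ranks. In the replicates' own lists they were 0.544 and 2.40 (exact sign-flip tests, p = 0.25), and 0.524 to 0.566 and 2.32 to 2.54 when each replicate was left out (p = 0.5), where no smaller p is possible. The G+C differences of 2.88 and −2.44 points also held for other window sizes and within and outside promoters. The replicates' own lists gave 3.00 and −1.79 points (exact sign-flip tests, p = 0.25), with 2.78 to 3.34 and −2.04 to −1.53 when each was left out (p = 0.5). The number of words differing from lower-ranked candidates was 9, and 0 at promoters alone by Fisher's exact test with adjustment (3 at an unadjusted p below 0.05). The GAGA element, the TATA box and the E-box CAGCTG had odds ratios of 1.21, 1.24 and 1.21 at promoters, beside 1.21, 1.24 and 1.20 over all summits. Those of the other 6 of the 9 words were nearer to 1 at promoters. The E-box was not among the 3 words with an unadjusted p below 0.05 at promoters (adjusted p = 0.244 by Fisher's exact test). The GAGA repeat had a smaller adjusted p there, 0.147 by the same test, with an odds ratio of 1.67 beside 2.15 over all summits. Member-only genes numbered 1415, and 578 counting only members found in all 3 lists and 757 to 903 when each replicate was left out and both others had to hold the summit. The other distances gave 1142 to 1614. No paired analysis was possible because there is 1 group. Of 58 alternatives for these results 28 were classed as the same. Another 16, all over the replicates' own lists, kept their direction but did not pass. The other 14 were counts or shares that moved, and a count or share without a comparison has no direction to reverse. No difference reversed its direction in these or in 36 alternatives for single words, of which 14 no longer passed. Depth is unknown from the lists, and a summit missing within 100 bp does not show that the region was undetected in that replicate.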
